A study of Mus musculus with 40 samples.

Results

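Rapamycin, which blocks the kinase complex mTORC1, was given for 3 days to TSCmKO mice at 9 months of age, when the study describes an overt muscle phenotype, and its effect on transcript levels was read in the extensor digitorum longus (EDL), a fast muscle of the lower leg. The data described here are 10 of the 40 libraries of the series, taken by the age, genotype and treatment on their labels: all 5 of 9mTSCmKO+RM (rapamycin) and all 5 of 9mTSCmKO (vehicle). The labels number the libraries of a group but do not say that each is a separate mouse. For its TSCmKO data the study text gives 5 mice per group. The p-values rest on a spread between libraries that was estimated over all 40 libraries of the series, not from these 10 alone. That spread may in part be technical. All TSCmKO mice carried floxed alleles of Tsc1 (strain Tsc1tm1Djk/J) and a Cre recombinase active in skeletal muscle fibers, so that Tsc1, an inhibitor of mTORC1, was deleted in fibers while other cells of the muscle kept it. The labels give an intraperitoneal dose of 4 mg per kg. A higher dose per day appears in the text of the study, so that the dose is uncertain. The other groups that are drawn on for comparison, also with 5 libraries each, are floxed littermates without Cre at 9 months (9mCON and 9mCON+RM) and TSCmKO mice at 3 months of age (3mTSCmKO and 3mTSCmKO+RM).

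mTORC1 responds to amino acids, insulin and cellular energy, and in turn raises protein, nucleotide and lipid synthesis while it restrains autophagy and the making of lysosomes. Among its outputs are translation of mRNAs for ribosomal proteins and translation factors, and activity of the transcription factor ATF4, which drives genes of amino acid synthesis and import. In skeletal muscle, lasting mTORC1 activity is known for a myopathy with blocked autophagy, endoplasmic reticulum stress, and damage to the neuromuscular junction. Rapamycin binds FKBP12 and through it blocks part of the activity of mTORC1.

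Levels are given as CPM (counts scaled to library size, with TMM factors between libraries), and each gene is described by its values in the 5 libraries of a group, replicate 1 to 5, before the test. The 9mTSCmKO libraries held 15936309 to 20867776 counts, and those of 9mTSCmKO+RM 13981064 to 18667327. The spread between libraries was larger with vehicle, with a biological coefficient of variation of 28.1% against 18.7% with rapamycin. The defining markers of fast muscle were present, since the 15 muscle fiber markers tested, among them Myh4 and Mylpf, summed to 127450 to 145221 CPM in 9mTSCmKO. Their sum was higher in every 9mTSCmKO+RM library, at 179997 to 227041 CPM. Transcripts of contractile genes thus took a larger share of the counts after rapamycin. The highest 9mTSCmKO value stood in library 1 for 832 (36.6%) and in library 3 for 784 (34.5%) of the 2275 genes called lower with rapamycin, against 29.4% and 26.4% of all genes tested. It stood in library 3 for all 10 of the largest falls named here. In bulk muscle, fewer cells of a type and less RNA per cell cannot be told apart.

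Of 13543 genes tested, 4410 (32.6%) changed with rapamycin at an adjusted p below 0.05, 2135 of them higher (15.8%) and 2275 lower (16.8%). Of the 4410, 565 (4.17% of genes tested) were at least 2-fold lower and 277 (2.05%) at least 2-fold higher. The values of the 2 groups of 5 libraries did not overlap for 2051 genes (15.1%), of which 1083 (8%) were higher and 968 (7.15%) lower. The median log2 fold change over all genes tested was -0.04. A fit of only these 10 libraries called 2544 genes. The same 3 days of rapamycin changed 1604 genes (11.8%) in 9mCON, with 5.03% of all genes higher and 6.82% lower, and 3196 genes (23.6%) in 3mTSCmKO, with 10.6% higher and 13% lower. The balance in 3mTSCmKO turned with the scaling, from 1435 higher and 1761 lower to 1810 and 1438 with upper-quartile scaling and 1539 and 1245 by limma on TPM. For 660 genes (4.87%) the rapamycin effect differed between TSCmKO and CON at 9 months, by a test of that difference. It was more positive in TSCmKO for 347 (2.56%) and more negative for 313 (2.31%). A fit of only the groups compared called 554 genes in 9mCON, 4212 in 3mTSCmKO and 209 for this difference. The shares over all genes in this paragraph are the background for the list counts below. A count near them is not a result about its list.

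Tsc1 (ENSMUSG00000026812, GRCm38 chromosome 2, 28641228 to 28691167), the deleted gene, was at 35.8, 27.6, 26.5, 28.6 and 24.4 CPM in 9mTSCmKO and 17.7, 18.8, 25.7, 19.6 and 19.6 CPM in 9mTSCmKO+RM, against 83.4 ± 27.9 CPM (SD, n = 5) in 9mCON. All 10 TSCmKO libraries lay below the 9mCON mean, and 1 treated library, replicate 3, lay within the range of the vehicle group. The residual level was lower after rapamycin (log2 fold change -0.49, SE 0.171, adjusted p = 0.0249), a call that was lost without 9mTSCmKO replicate 1 (-0.40, adjusted p = 0.0866), without 9mTSCmKO+RM replicate 1 (-0.45, adjusted p = 0.0568) and without 9mTSCmKO+RM replicate 2 (-0.46, adjusted p = 0.0563). Of the 29 tested components of the TSC and mTORC1 pathway, 4 rose and 7 fell, against 15.8% and 16.8% of all genes tested. Mtor, the kinase itself, rose from 40.8 ± 10.4 CPM with vehicle to 76.7 ± 17.3 CPM with rapamycin (SD, n = 5; log2 fold change 0.91, SE 0.18, adjusted p = 0.000147), and Tsc2, the partner of Tsc1, rose as well (0.72, adjusted p = 1.29e-05). The sestrins Sesn1 (-0.93, adjusted p = 0.000173), Sesn2 (-0.84, adjusted p = 0.000438) and Sesn3 (-0.68, adjusted p = 0.00721), stress-induced inhibitors of mTORC1, all fell, as did Fkbp1a (-0.48, adjusted p = 0.00715), which encodes the protein that rapamycin binds.

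**Figure D1:**
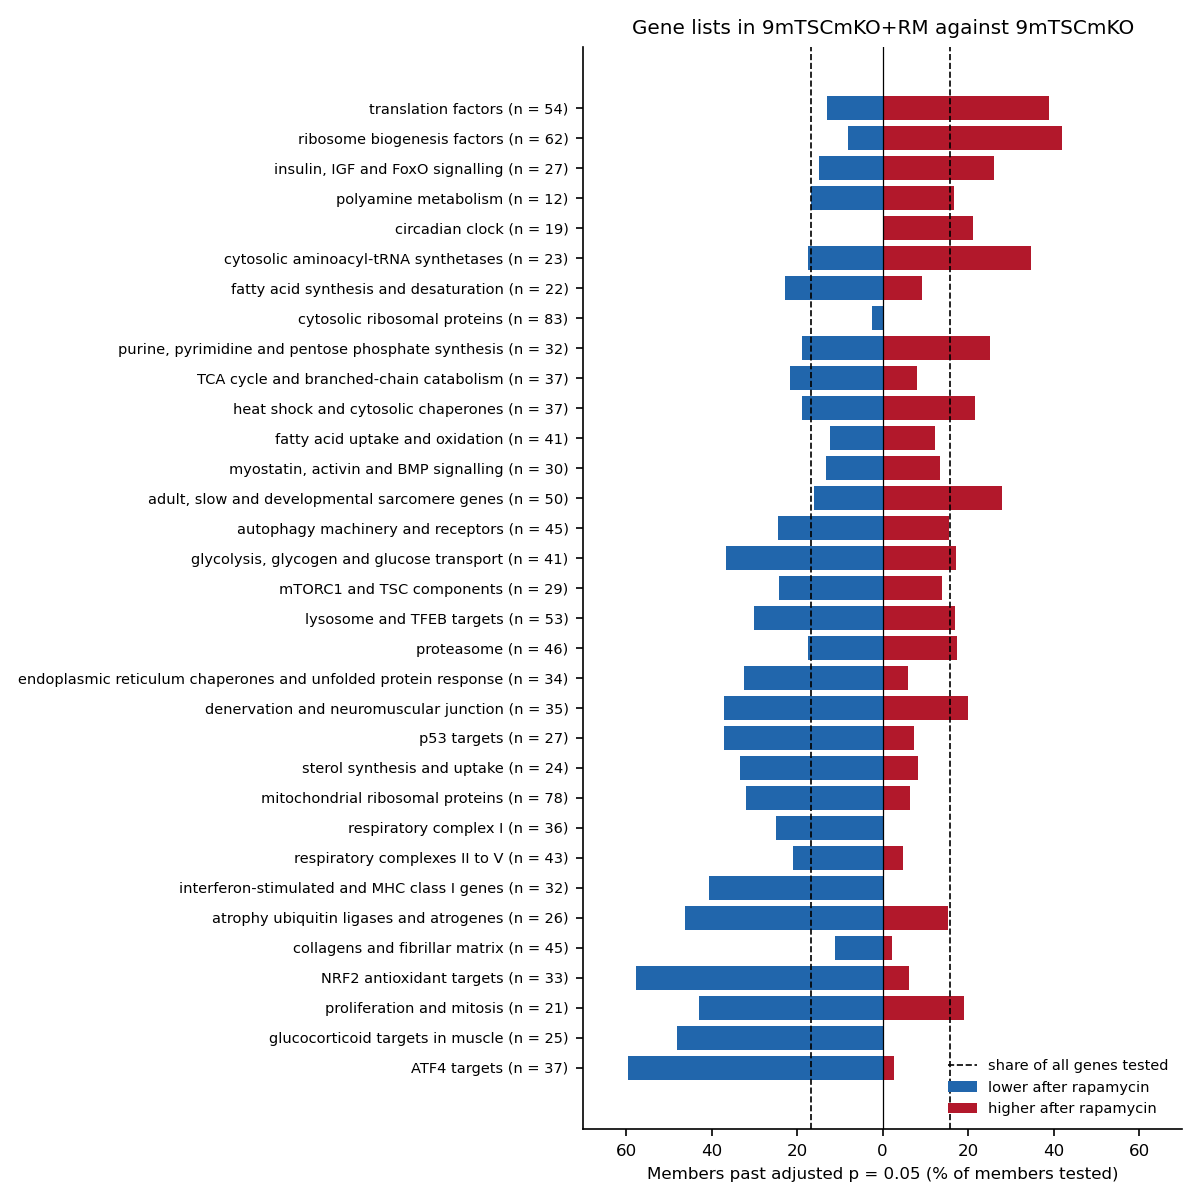
Share of the tested members of 33 gene lists that were lower (left, blue) or higher (right, red) in 9mTSCmKO+RM than in 9mTSCmKO at an adjusted p below 0.05, with lists ordered by their median log2 fold change. Dashed lines mark the shares over all 13543 genes tested, 16.8% lower and 15.8% higher: translation and ribosome biogenesis factors reach far to the right, and ATF4 and NRF2 targets far to the left.

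Translation factors start, extend and end protein synthesis. Of 54 tested, 21 rose and 7 fell, with a median log2 fold change of 0.25. In a fit of only these 10 libraries 13 rose and 2 fell. Eif4b, a helper of the mRNA-unwinding helicase eIF4A, was at 193, 227, 155, 224 and 221 CPM in 9mTSCmKO and 646, 602, 564, 600.4 and 559 CPM in 9mTSCmKO+RM. Every treated library was more than 2-fold above every vehicle library, and the treated values lay close together (log2 fold change 1.54, SE 0.108, adjusted p = 6.06e-13). Eef2, which moves the ribosome along the mRNA, was at 572, 929, 701, 793 and 859 CPM in 9mTSCmKO and 2260.3, 2089.6, 1963, 1887 and 1804 CPM in 9mTSCmKO+RM. Its groups did not overlap either (log2 fold change 1.38, SE 0.112, adjusted p = 1.25e-11).

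Eif4a2, a form of the helicase eIF4A, was at 301, 331, 349.6, 361 and 340.4 CPM in 9mTSCmKO and 818, 906, 608, 814 and 752 CPM in 9mTSCmKO+RM, again without overlap (log2 fold change 1.21, SE 0.127, adjusted p = 2.82e-09). Eif4a1, the other main form of that helicase, went the opposite way and fell (-0.69, adjusted p = 5.85e-06). Of 13 subunits of eIF3, the complex that places mRNA on the small ribosomal subunit, 9 rose (a family picked after its values were seen), led by Eif3g (0.73, adjusted p = 1.48e-05) and Eif3e (0.61, adjusted p = 4.54e-05). Pabpc4 (0.79, adjusted p = 2e-08), a poly(A)-binding protein, and Eif1 (0.76, adjusted p = 1.92e-06), which checks the start codon, rose too. In 9mCON, Eif4b changed by 1.32 (adjusted p = 6.93e-11), Eef2 by 1.16 (adjusted p = 5.07e-09) and Eif4a2 by 0.75 (adjusted p = 0.00011). The genotype difference in these effects was 0.22 (adjusted p = 0.427) for Eif4b, 0.22 (adjusted p = 0.446) for Eef2 and 0.46 (adjusted p = 0.123) for Eif4a2, none of them past the test. The 7 falls became 3 without 9mTSCmKO+RM replicate 2 or 3, and 4 without 9mTSCmKO+RM replicate 5 or 9mTSCmKO replicate 1 or 5.

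Ribosome biogenesis factors process rRNA and assemble ribosomal subunits in the nucleolus. Of 62 tested, 26 rose and 5 fell (8 fell without 9mTSCmKO replicate 2), with a median of 0.23. In a fit of only these 10 libraries 16 rose and 3 fell. Ddx21, a nucleolar RNA helicase, was at 51.4, 52.1, 43.1, 45.5 and 40.6 CPM in 9mTSCmKO and 89.97, 111, 122, 122 and 111 CPM in 9mTSCmKO+RM. All 5 treated libraries lay above all vehicle libraries (log2 fold change 1.26, SE 0.141, adjusted p = 1.23e-08). Utp14a, part of the complex that cuts the precursor of 18S rRNA, was at 27.5, 21.6, 22.2, 20.8 and 18 CPM in 9mTSCmKO and 46.8, 40.7, 44.4, 39.5 and 47.3 CPM in 9mTSCmKO+RM, also without overlap (log2 fold change 0.99, SE 0.109, adjusted p = 8.26e-09). Rrp12 (0.88, adjusted p = 4.15e-05), Mybbp1a (0.87, adjusted p = 3.73e-06), Tsr1 (0.82, adjusted p = 1.91e-05), the nucleolar proteins Npm1 (0.79, adjusted p = 0.00314) and Ncl (0.74, adjusted p = 3.73e-05), and the RNA polymerase I subunits Polr1b (0.63, adjusted p = 0.0189) and Polr1c (0.59, adjusted p = 0.000714) also rose. The Polr1b call was lost without 9mTSCmKO replicate 1 (0.45, adjusted p = 0.0835). Against this direction, Fbl, the methylase of rRNA, fell (-0.48, adjusted p = 0.00254), as did Nip7 (-0.84, adjusted p = 0.000625) and Utp18 (-0.82, adjusted p = 0.000476). The list's median was 0.23 in 9mCON, where 20 members rose, and 0.18 in 3mTSCmKO, where 18 rose and 1 fell (0 to 2 over the fits without 1 library).

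Of 83 cytosolic ribosomal proteins tested, 0 rose by edgeR (4 at an unadjusted p below 0.05, 0 by DESeq2 and 4 by limma on TPM) and 2 fell, with a median of 0.003 (-0.023 to 0.023 over the settings other than those without 1 library). Rpl36al fell by 0.41 on the log2 scale (adjusted p = 0.0155) and Rpl3 by 0.31 (adjusted p = 0.0442). The Rpl36al call was lost in 2 of 18 alternative fits, among them the fit without 9mTSCmKO replicate 5 (adjusted p = 0.0655), and the Rpl3 call in 9, of which 5 left out 1 library (adjusted p of up to 0.145). The count of rises reached 5 without 9mTSCmKO+RM replicate 3 and 4 without 9mTSCmKO replicate 3, and the count of falls ran from 1 to 5 over the fits that left out 1 library. These genes have many near-identical pseudogenes, and shared reads were split by the counting, so that their levels are uncertain. For most of them a change was not detectable at this spread.

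Enzymes that charge tRNAs were split. Of 23 cytosolic synthetases and their scaffold proteins, 8 rose and 4 fell. Vars, for valine, was at 33, 47.6, 39.8, 36.4 and 40.8 CPM in 9mTSCmKO and 82.1, 91.5, 99.6, 77.2 and 80.3 CPM in 9mTSCmKO+RM. Its groups did not overlap (log2 fold change 1.12, SE 0.124, adjusted p = 8.26e-09). Dars (0.63, adjusted p = 1.63e-05), Qars (0.63, adjusted p = 8.2e-06), Iars (0.63, adjusted p = 0.00139) and the scaffold protein Aimp2 (0.67, adjusted p = 0.00154) rose as well. Those that fell were Nars (-0.49, adjusted p = 0.000313), Hars (-0.43, adjusted p = 0.000863), Aars (-0.43, adjusted p = 0.00953) and Tars (-0.31, adjusted p = 0.0277). The Tars call was lost without 9mTSCmKO replicate 3 (adjusted p = 0.0822) or 9mTSCmKO+RM replicate 1 (adjusted p = 0.0851).

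Genes of nucleotide and polyamine synthesis also had calls in either direction. Of 32 enzymes of nucleotide and pentose phosphate synthesis, 8 rose and 6 fell, and of 12 genes of polyamine metabolism 2 rose and 2 fell. Over all genes tested 15.8% rose and 16.8% fell, near the polyamine counts and the nucleotide falls. Impdh2, the rate-limiting enzyme of guanine nucleotide synthesis, was at 23.7, 31, 31.7, 25.4 and 29.6 CPM in 9mTSCmKO and 73, 57.2, 46.1, 51.4 and 54.2 CPM in 9mTSCmKO+RM, without overlap (log2 fold change 0.99, SE 0.116, adjusted p = 2.77e-08), whereas its sister form Impdh1 fell (-0.49, adjusted p = 0.00107). The pyrimidine enzymes Cad (0.71, adjusted p = 0.000333), Umps (0.74, adjusted p = 0.000625) and Ctps (0.56, adjusted p = 0.000377) rose. Rrm2b, a ribonucleotide reductase subunit used outside of cell division, rose (0.79, adjusted p = 6.88e-06), and Rrm2, the form of dividing cells, fell (-2.77, adjusted p = 1.81e-07). In the pentose phosphate pathway, Pgd was at 35, 28.7, 52.2, 27.7 and 24.9 CPM in 9mTSCmKO and 16.2, 13.9, 17, 17.6 and 16.3 CPM in 9mTSCmKO+RM. All treated libraries were below all vehicle libraries (log2 fold change -1.05, SE 0.144, adjusted p = 4.72e-07), and Taldo1 fell too (-0.64, adjusted p = 0.000598). Of 12 genes of polyamine metabolism, Srm, spermidine synthase, rose from 4.48 ± 1.69 CPM with vehicle to 10.8 ± 1.28 CPM with rapamycin (SD, n = 5; log2 fold change 1.26, SE 0.177, adjusted p = 7.97e-07) and Sms, spermine synthase, rose (0.34, adjusted p = 0.0185), a call lost without 9mTSCmKO replicate 2 (adjusted p = 0.0695) or 9mTSCmKO+RM replicate 2 (adjusted p = 0.0548). Amd1, which makes the propylamine donor, fell (-1.17, adjusted p = 0.000801), as did Sat1, which breaks polyamines down (-0.88, adjusted p = 0.000609).

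**Figure D2:**
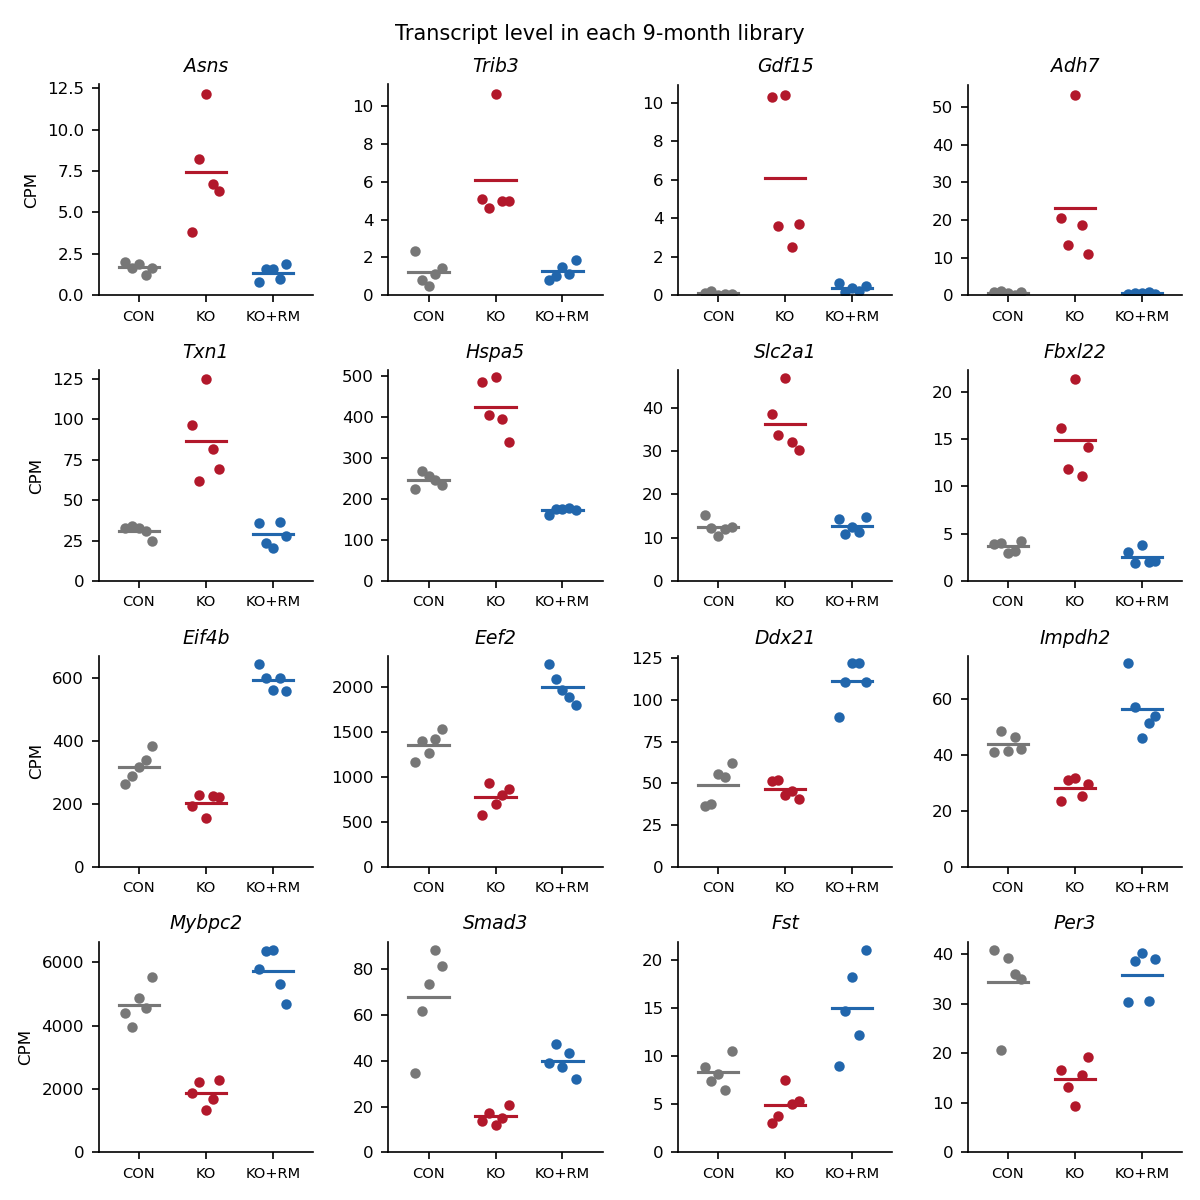
CPM of 16 genes in the 5 libraries of 9mCON (CON, grey), 9mTSCmKO (KO, red) and 9mTSCmKO+RM (KO+RM, blue), with a line at each group mean and axes that start at 0. For the 8 genes from Asns to Fbxl22 the treated libraries lie below all vehicle TSCmKO libraries, and for the 8 from Eif4b to Per3 they are higher.

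Of 50 sarcomere and calcium-handling genes, 14 rose and 8 fell. Mybpc2, the fast form of myosin-binding protein C, was at 1877, 2219, 1344, 1680.5 and 2268 CPM in 9mTSCmKO and 5788, 6361, 6389, 5311 and 4689 CPM in 9mTSCmKO+RM. Every treated library was at least 2-fold above every vehicle library, and the 9mCON level was 4663 ± 587 CPM (log2 fold change 1.60, SE 0.173, adjusted p = 5.15e-09). Myh2, myosin heavy chain 2A, was at 29.7, 102, 24.3, 67.7 and 44.7 CPM in 9mTSCmKO and 117, 193, 271, 167 and 154 CPM in 9mTSCmKO+RM, without overlap (log2 fold change 1.75, SE 0.372, adjusted p = 0.000443), but 32.0% of its 31-mers also stand in other genes, so that its level is uncertain.

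Myh4, myosin heavy chain 2B of the fastest fibers (1.34, adjusted p = 7.97e-06), and Atp2a1, the calcium pump of fast fibers (1.24, adjusted p = 4.71e-08), rose too. For Myh4 30.0% of the 31-mers stand in other genes, so that its level is uncertain as well. Mybph, a myosin-binding protein, was at 14.9, 15.8, 29.2, 14.5 and 15.8 CPM in 9mTSCmKO and 112, 64.1, 45.9, 74 and 70.6 CPM in 9mTSCmKO+RM (log2 fold change 2.02, SE 0.618, adjusted p = 0.0119). Vehicle replicate 3 was highest of its group, and the groups did not overlap. In 9mCON the gene changed by -1.12 (adjusted p = 0.257), and the genotype difference was 3.14 (adjusted p = 0.0295), lost in 3 of 20 fits without 1 library (adjusted p of up to 0.0567). The genes that fell included slow and fetal forms, among them Myl2, the slow regulatory light chain (-1.52, adjusted p = 0.00745), Myl4, the fetal light chain (-1.53, adjusted p = 6.71e-06), Myl6b (-1.28, adjusted p = 1.2e-06), Casq2, the slow calsequestrin (-1.03, adjusted p = 7.21e-06), and Sln, an inhibitor of the calcium pump (-1.45, adjusted p = 5.82e-05). Pvalb, the calcium buffer of fast fibers, fell as well (-0.78, adjusted p = 0.00259). The myosin heavy chains did not share the falls of slow and fetal forms (a family picked after its values were seen). Of 8 tested, among them the slow Myh7 and Myh7b and the perinatal Myh8, 4 rose, with a median of 0.86. In this family 0 fell by edgeR, at an unadjusted p below 0.05, by DESeq2 or by limma on TPM.

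Fst, a secreted inhibitor of myostatin and activin, was at 3.01, 3.82, 7.53, 5.07 and 5.33 CPM in 9mTSCmKO and 8.99, 14.7, 18.2, 12.2 and 21 CPM in 9mTSCmKO+RM. The groups did not overlap (log2 fold change 1.60, SE 0.273, adjusted p = 1.95e-05), and the effect differed from that in 9mCON, where Fst changed by -0.48 (adjusted p = 0.29), with a difference of 2.08 (adjusted p = 0.00116). Smad3, which carries the myostatin signal to the nucleus, was at 13.8, 17.3, 11.9, 15.2 and 20.5 CPM in 9mTSCmKO and 38.9, 47.1, 37.3, 43.4 and 31.9 CPM in 9mTSCmKO+RM, also without overlap (log2 fold change 1.33, SE 0.194, adjusted p = 1.51e-06), and the receptor Acvr1b fell (-0.80, adjusted p = 0.00026). In all, 4 of 30 genes of this pathway rose and 4 fell, not above the shares over all genes of 15.8% and 16.8%. The 4 rises became 2 without 9mTSCmKO replicate 3 and 7 without 9mTSCmKO+RM replicate 1, and the 4 falls became 2 without 9mTSCmKO replicate 1 or 9mTSCmKO+RM replicate 2.

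In the insulin pathway 7 of 27 genes rose and 4 fell. The adaptors Irs1 (0.94, adjusted p = 0.00536) and Irs2 (0.70, adjusted p = 0.00416) and the pseudokinase Trib1 (1.09, adjusted p = 0.000103) rose, while Igfbp5 (-0.92, adjusted p = 0.000158), Igf2 (-0.72, adjusted p = 0.000152) and Akt1 (-0.56, adjusted p = 0.000738) fell. Of 19 circadian clock genes 4 rose. Per3, a repressor of the clock, was at 16.6, 13.2, 9.43, 15.6 and 19.2 CPM in 9mTSCmKO and 30.3, 38.6, 40.2, 30.4 and 39 CPM in 9mTSCmKO+RM, without overlap (log2 fold change 1.27, SE 0.203, adjusted p = 7.53e-06). Per2 (1.18, adjusted p = 0.00814) and the output factor Hlf (1.17, adjusted p = 0.000467) also rose, while the core factors Arntl (0.39, adjusted p = 0.191) and Clock (-0.10, adjusted p = 0.677) did not pass the test. Times of day of dissection are not on the labels.

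ATF4 targets are genes of amino acid synthesis, import and stress signalling. Of 37 tested, 22 fell and 1 rose, with a median of -0.67 against -0.04 over all genes. Several of them carry, close to their start, the letters TGATGNAA, a form of the composite site that ATF4 reads together with C/EBP partners. These letters, on either strand, stood in 10 of 32 members with a RefSeq window of 250 bases before to 50 bases after the start (31.2%), and in 1219 of 27025 genes with such a window (4.51%). The match is a description and not a bound site. The list was made of known ATF4 targets, so that a higher share than over all genes was built in. The same holds for the NRF2 targets below. Stretches of 60 bases (RefSeq, GRCm38.p6, gene strand, 5′ to 3′) are shown for 5 members that fell and for Pycr1, which rose, with the match in capitals:
Asns: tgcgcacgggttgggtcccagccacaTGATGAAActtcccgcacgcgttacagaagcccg
Trib3: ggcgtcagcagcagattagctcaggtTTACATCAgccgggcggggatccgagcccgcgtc
Nupr1: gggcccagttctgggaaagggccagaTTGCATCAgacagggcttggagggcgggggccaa
Slc1a4: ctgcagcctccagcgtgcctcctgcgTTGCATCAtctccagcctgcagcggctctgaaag
Slc7a11: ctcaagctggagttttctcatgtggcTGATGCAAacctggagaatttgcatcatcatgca
Pycr1: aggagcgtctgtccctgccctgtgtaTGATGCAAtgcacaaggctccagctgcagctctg
They lie at chr6:7693199-7693258 (Asns), chr2:152344013-152344072 (Trib3), chr7:126625547-126625606 (Nupr1), chr11:20332684-20332743 (Slc1a4), chr3:50443646-50443705 (Slc7a11) and chr11:120643818-120643877 (Pycr1), all on the minus strand. The stretch of Slc7a11 holds the letters again on the other strand, 19 bases further on. The match of Trib3 lies after the annotated start, that of Slc1a4 spans it, and the others lie before it. Of the 10 members with the letters, 7 fell, Pycr1 rose, and Atf3 and Chac1 did not pass the test. The 7 are of 22 lower members with a window, a share near the 31.2% of the whole list.

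Asns, asparagine synthetase, with its match 23 bases before the start, was at 3.79, 8.23, 12.2, 6.75 and 6.29 CPM in 9mTSCmKO and 0.782, 1.55, 1.58, 0.964 and 1.89 CPM in 9mTSCmKO+RM. All vehicle libraries lay at least 2-fold above all treated libraries, which stood around the 9mCON level of 1.68 ± 0.305 CPM (log2 fold change -2.43, SE 0.289, adjusted p = 3.53e-08). Trib3, a pseudokinase that restrains AKT and ATF4, was at 5.09, 4.64, 10.7, 5.02 and 4.98 CPM in 9mTSCmKO and 0.782, 1.04, 1.47, 1.1 and 1.89 CPM in 9mTSCmKO+RM, without overlap (log2 fold change -2.26, SE 0.354, adjusted p = 5.34e-06). Gdf15, a stress cytokine, was at 10.3, 3.59, 10.4, 2.48 and 3.71 CPM in 9mTSCmKO and 0.625, 0.173, 0.38, 0.207 and 0.487 CPM in 9mTSCmKO+RM. The groups were more than 3-fold apart at their nearest values (log2 fold change -4.03, SE 0.447, adjusted p = 9.61e-09). In 9mCON it was at 0.0901 ± 0.0868 CPM.

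In serine and one-carbon synthesis Psat1 (-2.13, adjusted p = 2e-08), Psph (-1.14, adjusted p = 1.16e-07) and Mthfd2 (-1.41, adjusted p = 3.04e-06) fell, in proline synthesis Aldh18a1 fell (-0.68, adjusted p = 0.0092) while Pycr1 rose (0.98, adjusted p = 7.82e-05). Of the amino acid carriers, Slc1a4 (-1.35, adjusted p = 0.00197), the cystine importer Slc7a11 (-1.26, adjusted p = 7.88e-05), the cationic carrier Slc7a1 (-0.93, adjusted p = 3.52e-05), Slc38a2 (-0.63, adjusted p = 0.004) and the shared heavy chain Slc3a2 (-0.67, adjusted p = 1.22e-05) fell. The stress regulators Ddit3, known as CHOP (-1.22, adjusted p = 1.22e-06), Atf5 (-0.93, adjusted p = 3.34e-06) and Nupr1 (-1.34, adjusted p = 2.44e-05) fell too, and Chac1 (0.23, adjusted p = 0.635) and Atf3 (-0.02, adjusted p = 0.987) did not pass the test.

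The fall of some ATF4 targets differed from that in 9mCON. In the test of the difference 7 of 37 members passed, all more negative in TSCmKO, among them Asns at -1.68 (adjusted p = 0.0174), Trib3 at -2.20 (adjusted p = 0.00995) and Mthfd2 at -1.29 (adjusted p = 0.0151). In 9mCON 1 member rose and 3 fell (0 to 2 rose and 2 to 5 fell over the fits without 1 library), with a median of -0.12. In 3mTSCmKO 2 rose and 18 fell, with a median of -0.58, and Asns changed by -1.14 (adjusted p = 0.00303) there.

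**Figure D3:**
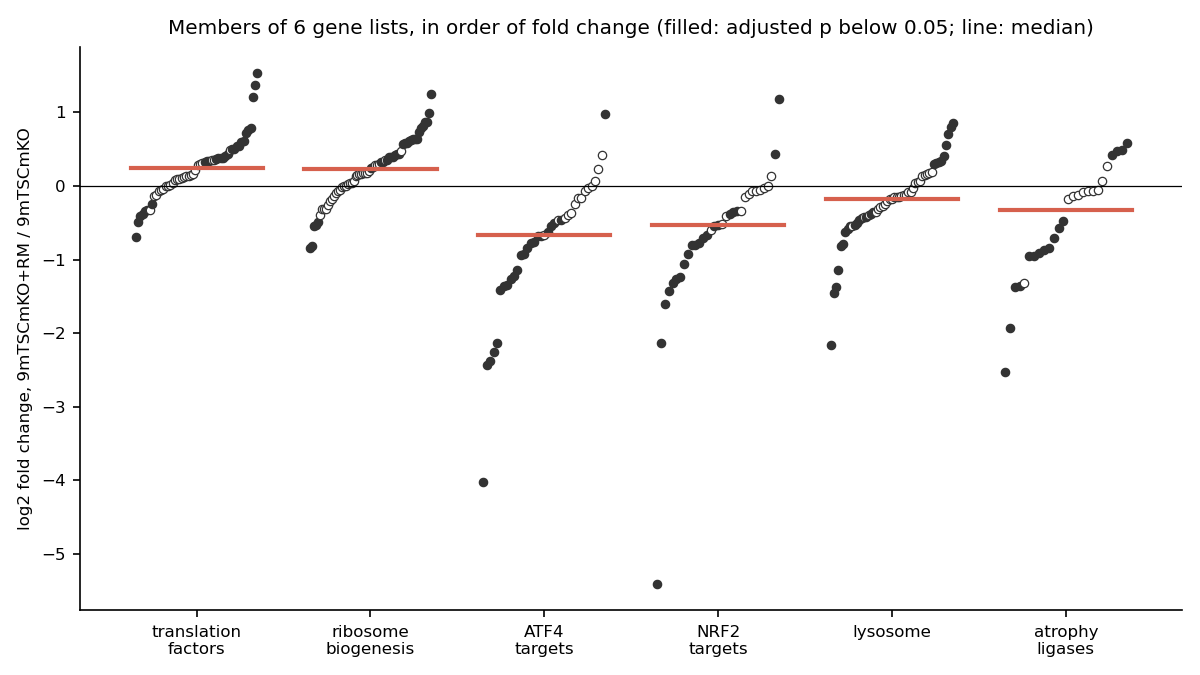
Log2 fold change (9mTSCmKO+RM over 9mTSCmKO) of each tested member of 6 lists, sorted within each list. Filled points passed an adjusted p of 0.05 and red lines mark the medians: 0.25 for translation factors, 0.23 for ribosome biogenesis, -0.67 for ATF4 targets and -0.53 for NRF2 targets.

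NRF2 turns on antioxidant and detoxifying enzymes. Of 33 of its targets tested, 19 fell and 2 rose, with a median of -0.53. The core of the antioxidant element that NRF2 reads, TGACNNNGC on either strand, stood in the windows of 11 of 27 members (40.7%) and of 3781 of 27025 genes (14%). Of these 11, 7 fell, which is 7 of the 15 lower members with a window, and G6pdx (-0.52, adjusted p = 0.0948), Me1 (0.14, adjusted p = 0.414), Mgst1 (-0.60, adjusted p = 0.0917) and Nfe2l2 did not pass the test. Srxn1 and Txnrd1, both among the falls, are shown in the same way, with the match in capitals:
Srxn1: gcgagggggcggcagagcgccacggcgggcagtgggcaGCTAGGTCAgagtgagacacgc
Txnrd1: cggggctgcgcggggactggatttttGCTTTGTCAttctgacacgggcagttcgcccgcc
They lie at chr2:152105514-152105573 (Srxn1) and chr10:82859088-82859147 (Txnrd1), both on the plus strand. The match of Srxn1 lies after the annotated start and that of Txnrd1 before it.

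Adh7, an alcohol and retinol dehydrogenase, showed the largest fall of all genes that passed and was at 20.4, 13.3, 53.3, 18.6 and 10.8 CPM in 9mTSCmKO and 0.313, 0.691, 0.489, 0.757 and 0.426 CPM in 9mTSCmKO+RM. The lowest vehicle library was above 10 CPM and the highest treated library below 1 CPM (log2 fold change -5.41, SE 0.477, adjusted p = 9.63e-11). Vehicle replicate 3 was far above the other 4, and without it the log2 fold change was -4.86 (adjusted p = 1.59e-10). The 9mCON level was 0.645 ± 0.323 CPM, and in 3mTSCmKO the gene changed by -0.04 (adjusted p = 0.974). Txn1, thioredoxin, was at 96.4, 62, 125, 81.5 and 69.3 CPM in 9mTSCmKO and 36, 23.5, 20.6, 36.2 and 27.5 CPM in 9mTSCmKO+RM, without overlap (log2 fold change -1.60, SE 0.163, adjusted p = 1.88e-09), and stood at 30.9 ± 3.75 CPM in 9mCON. Hmox1, heme oxygenase, was at 10.4, 10.2, 24.5, 12 and 10.4 CPM in 9mTSCmKO and 6.25, 4.2, 4.56, 4.89 and 5.3 CPM in 9mTSCmKO+RM, where vehicle replicate 3 again stood apart (log2 fold change -1.42, SE 0.244, adjusted p = 2.04e-05, and -1.10, adjusted p = 0.000265, without it).

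Nqo1 (-1.24, adjusted p = 1.26e-07), the carbonyl reductase Cbr3 (-2.13, adjusted p = 1.58e-05), the glutathione transferase Gsta4 (-1.32, adjusted p = 3.88e-07), and Gclc (-0.80, adjusted p = 5.85e-07) and Gclm (-0.36, adjusted p = 0.0127), subunits of the enzyme that starts glutathione synthesis, fell as well. The Gclm call was lost without 9mTSCmKO+RM replicate 1 (-0.26, adjusted p = 0.0575). Srxn1 (-0.92, adjusted p = 0.00129), Txnrd1 (-0.71, adjusted p = 4.32e-05) and Prdx6 (-0.53, adjusted p = 0.000933), which handle peroxides and thiols, were also lower. The 2 rises were Keap1, the inhibitor of NRF2 (0.44, adjusted p = 0.000156), and Abcc1, an exporter of glutathione conjugates (1.19, adjusted p = 2.27e-08). The mRNA of NRF2 itself, Nfe2l2, did not pass the test (-0.07, adjusted p = 0.691). The genotype difference passed for 9 of 33 members, 8 more negative and 1 more positive in TSCmKO (the latter lost in 12 of 20 fits without 1 library), with Adh7 at -5.06 (adjusted p = 0.000219), Txn1 at -1.38 (adjusted p = 0.000347) and Nqo1 at -1.01 (adjusted p = 0.00582). In 9mCON 3 members fell and 2 rose (1 to 3 rose over the fits without 1 library), with a median of -0.04. In 3mTSCmKO 9 of the 33 fell and 2 rose, against 13% and 10.6% of all genes, with a median of -0.04.

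**Figure D4:**
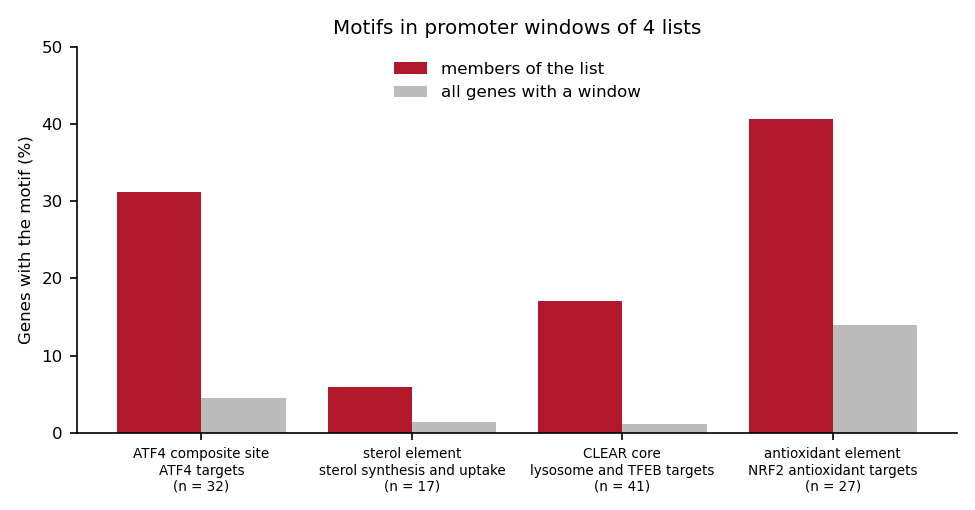
Share of genes whose RefSeq window (250 bases before to 50 after the start) holds a given motif on either strand, for the tested members of 4 lists (red) and for all 27025 genes with a window (grey). The share was 31.2% against 4.51% for the ATF4 letters, 5.88% against 1.44% for the sterol element, 17.1% against 1.12% for the CLEAR core and 40.7% against 14% for the antioxidant element.

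Of 34 genes of endoplasmic reticulum chaperones and the unfolded protein response, 11 fell and 2 rose. Hspa5, the main chaperone known as BiP, was at 486, 406, 497, 395 and 339 CPM in 9mTSCmKO and 161, 175, 176, 179 and 173 CPM in 9mTSCmKO+RM. The treated values lay within a narrow band below every vehicle library, and below the 9mCON mean of 246 ± 17 CPM (log2 fold change -1.30, SE 0.12, adjusted p = 1.95e-10). Manf, a secreted stress protein, was at 61.7, 34.2, 57.3, 34.2 and 30.4 CPM in 9mTSCmKO and 18.8, 15.9, 14.3, 16.3 and 15.8 CPM in 9mTSCmKO+RM, without overlap (log2 fold change -1.43, SE 0.184, adjusted p = 1.71e-07). Sdf2l1 (-1.81, adjusted p = 6.28e-08), Pdia6 (-0.59, adjusted p = 4.14e-05), Herpud1 (-0.39, adjusted p = 0.00304) and the translocon subunit Sec61g (-0.85, adjusted p = 0.000348) fell, and P4hb (0.65, adjusted p = 2.51e-05) and the stress sensor Ern1 (0.48, adjusted p = 0.0404) rose. The Ern1 call was lost in 7 of 10 fits without 1 library (adjusted p of up to 0.140), which leaves 1 rise. Hspa5 changed by -0.42 (adjusted p = 0.0158) in 9mCON and by -1.27 (adjusted p = 2.91e-10) in 3mTSCmKO, and the genotype difference at 9 months was -0.88 (adjusted p = 0.00157).

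Of 37 heat shock proteins and chaperones of the cytosol 8 rose and 7 fell (3 fell without 9mTSCmKO replicate 3, and 3 in a fit of only these 10 libraries). These counts lay near the shares over all genes of 15.8% and 16.8%. The list's median was -0.05, against -0.04 over all genes. Hsp90ab1 (0.78, adjusted p = 3.66e-06), Hspa1l (0.80, adjusted p = 8.02e-05), the chaperonin subunit Cct4 (0.79, adjusted p = 2.72e-06) and the heat shock factor Hsf1 (0.57, adjusted p = 3.5e-05) rose. Hspa2 (-1.13, adjusted p = 3.34e-06), and Cryab (-0.60, adjusted p = 0.0159) and Bag3 (-0.42, adjusted p = 0.00759), which act at the sarcomere, fell. The Cryab call was lost without 9mTSCmKO replicate 3 (-0.34, adjusted p = 0.148).

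Of 41 genes of glucose transport, glycolysis and glycogen, 15 fell and 7 rose. Slc2a1, the insulin-independent glucose carrier GLUT1, was at 38.7, 33.8, 46.9, 32.1 and 30.4 CPM in 9mTSCmKO and 14.3, 10.9, 12.4, 11.4 and 14.7 CPM in 9mTSCmKO+RM. The groups were 2-fold apart at their nearest values (log2 fold change -1.51, SE 0.162, adjusted p = 4.66e-09), and treated libraries surrounded the 9mCON mean of 12.4 ± 1.73 CPM. Hk1, a hexokinase of most tissues, was at 48.5, 34.7, 50.6, 26.4 and 21.1 CPM in 9mTSCmKO and 13, 10.2, 19.3, 13.1 and 11.9 CPM in 9mTSCmKO+RM, without overlap (log2 fold change -1.42, SE 0.202, adjusted p = 9.73e-07). Pfkp, a form of phosphofructokinase (-1.03, adjusted p = 5.85e-06), Ldhb (-1.24, adjusted p = 1.55e-05), Eno1 (-0.68, adjusted p = 7.57e-05), the regulator Pfkfb3 (-1.41, adjusted p = 0.0122) and the lactate carriers Slc16a1 (-1.21, adjusted p = 2e-08) and Slc16a3 (-0.88, adjusted p = 1.13e-05) fell. Pygm, muscle glycogen phosphorylase (0.92, adjusted p = 1.55e-06), Aldoa (0.49, adjusted p = 0.006) and Gapdh (0.52, adjusted p = 0.00895) rose, and the muscle form Pgam2 fell (-0.73, adjusted p = 0.00592). The Gapdh call was lost without 9mTSCmKO+RM replicate 1 (0.35, adjusted p = 0.0692). Of the 31-mers of Eno1 27.9% and of those of Gapdh 18.3% also stand in other genes, so that both levels are uncertain. The muscle forms Hk2 (-0.36, adjusted p = 0.101), Pfkm (-0.02, adjusted p = 0.937), Ldha (0.05, adjusted p = 0.819) and Eno3 (0.23, adjusted p = 0.137) did not pass the test.

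Of 53 lysosomal genes, many of them targets of the factor TFEB, 16 fell and 9 rose (4 rose in a fit of only these 10 libraries). Gpnmb, a membrane protein of stressed lysosomes, was at 27.9, 58.1, 39.7, 43.9 and 29.8 CPM in 9mTSCmKO and 9.69, 7.08, 8.91, 11.8 and 7.13 CPM in 9mTSCmKO+RM, without overlap (log2 fold change -2.16, SE 0.292, adjusted p = 4.81e-07), and at 4.003 ± 2.04 CPM in 9mCON. Ctsl, cathepsin L, was at 548, 279, 613, 278 and 297 CPM in 9mTSCmKO and 216, 136, 123, 152 and 154 CPM in 9mTSCmKO+RM, also without overlap (log2 fold change -1.37, SE 0.192, adjusted p = 7.97e-07). Of 13 subunits of the V-ATPase, the pump that acidifies lysosomes, 7 fell and 1 rose (a family picked after its values were seen), led by Atp6v1h (-1.14, adjusted p = 9.15e-08), Atp6v1g1 (-0.82, adjusted p = 0.000784) and Atp6v1a (-0.59, adjusted p = 0.000768), with Atp6v0d1 as the rise (0.41, adjusted p = 0.0137), which was lost without 9mTSCmKO replicate 1 (0.27, adjusted p = 0.0751). The rises included the glycan-degrading enzyme Hexa (0.80, adjusted p = 1.15e-06), while Gla, a lysosomal galactosidase (-0.54, adjusted p = 0.0178), fell. Leaving out 9mTSCmKO+RM replicate 3 ended the Gla call (adjusted p = 0.0629). Ctss (-1.45, adjusted p = 0.00296) also fell, with overlapping groups, and it is a macrophage gene as well. The 19 macrophage markers summed to 142 to 328 CPM with vehicle and 145 to 185 CPM with rapamycin. Their median log2 fold change was -0.59, with 18 of the 19 values below 0 and 3 past the test (1 to 4 over the fits without 1 library). The part of macrophages in the lysosomal falls was not tested.

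The CLEAR core TCACGTGA, which TFEB and related factors read, stood in the windows of 7 of 41 lysosomal genes (17.1%) and 304 of 27025 genes (1.12%). It reads the same on either strand. Of these 7, Atp6v1a, Atp6v0e (-0.44, adjusted p = 0.0119) and Gla fell, Atp6v0d1 rose (a call lost without 9mTSCmKO replicate 1), and Ctsa (-0.43, adjusted p = 0.183), Ctsd (-0.12, adjusted p = 0.455) and Mcoln1 (0.19, adjusted p = 0.0838) did not pass the test. The Atp6v0e call was lost without 9mTSCmKO replicate 3 (-0.28, adjusted p = 0.0916) or 9mTSCmKO+RM replicate 3 (-0.35, adjusted p = 0.0535). The stretches of 2 subunits that moved in opposite directions are shown, with the core in capitals:
Atp6v1a: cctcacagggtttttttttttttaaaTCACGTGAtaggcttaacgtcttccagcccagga
Atp6v0d1: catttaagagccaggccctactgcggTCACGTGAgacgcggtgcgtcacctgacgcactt
They lie at chr16:44139358-44139417 and chr8:105566035-105566094, both on the minus strand, the core of Atp6v1a before the annotated start and that of Atp6v0d1 across it.

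Of 45 autophagy genes 11 fell and 7 rose (4 rose without 9mTSCmKO replicate 1 or 9mTSCmKO+RM replicate 2, and 2 by limma on TPM). In a fit of only these 10 libraries 4 rose and 7 fell. Over all genes tested 16.8% fell and 15.8% rose in the main fit, and the autophagy rises lay near that share. Sqstm1, the receptor p62 that also gathers in cells with blocked autophagy, was at 1599.8, 1624, 2516, 1585 and 1659 CPM in 9mTSCmKO and 807, 831, 908, 915 and 847 CPM in 9mTSCmKO+RM. Vehicle replicate 3 stood above the other 4, which lay close together, and all treated libraries were lower (log2 fold change -1.06, SE 0.131, adjusted p = 8.31e-08, and -0.91, adjusted p = 6.92e-07, without replicate 3). The 9mCON level was 611 ± 43.4 CPM, and the genotype difference in the rapamycin effect was -1.11 (adjusted p = 0.000347). Trp53inp2 (-1.09, adjusted p = 4.67e-06), Wipi1 (-0.87, adjusted p = 3.21e-08) and Atg10 (-0.97, adjusted p = 0.000879) fell, and Atg7 (0.60, adjusted p = 0.000658) and Atg14 (0.43, adjusted p = 0.00719) rose.

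Of 26 ubiquitin ligases and other genes raised in muscle atrophy 12 fell and 4 rose. Fbxl22, an F-box protein of the sarcomere, was at 16.2, 11.8, 21.3, 11.1 and 14.2 CPM in 9mTSCmKO and 3.05, 1.9, 3.8, 1.997 and 2.13 CPM in 9mTSCmKO+RM. The groups did not overlap and the treated values lay around and below the 9mCON level of 3.64 ± 0.542 CPM (log2 fold change -2.53, SE 0.227, adjusted p = 9.66e-11). Gadd45a, a stress gene of denervated muscle, was at 234, 217, 332, 243 and 225 CPM in 9mTSCmKO and 82.1, 59.4, 63, 77.8 and 48.1 CPM in 9mTSCmKO+RM, without overlap (log2 fold change -1.92, SE 0.266, adjusted p = 8.41e-07). The classic ligases Trim63, MuRF1 (-0.87, adjusted p = 0.00882), and Fbxo32, atrogin-1 (-0.70, adjusted p = 0.0179), fell, as did Fbxo30 (-0.56, adjusted p = 0.00242), Fbxo40 (-0.47, adjusted p = 0.00651) and Asb2 (-0.91, adjusted p = 1.66e-05), while Fbxo31 (0.49, adjusted p = 0.00175) and Fbxo21 (0.58, adjusted p = 0.000313) rose. The genotype difference passed for 3 members, each more negative in TSCmKO, but for 3 to 6 over the fits without 1 library, with 1 more positive in 1 such fit. Of 46 proteasome genes 8 rose and 8 fell (5 fell without 9mTSCmKO replicate 3), near the shares over all genes of 15.8% and 16.8%. Psmd4, a ubiquitin receptor of the proteasome, rose (0.82, adjusted p = 3.32e-06), and the catalytic subunit Psmb5 (-0.74, adjusted p = 1.32e-06) and the assembly factor Pomp (-0.66, adjusted p = 0.00842) fell, the latter a call lost without 9mTSCmKO replicate 3 (-0.47, adjusted p = 0.0579).

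Of 25 glucocorticoid targets of muscle, 12 fell, with a median of -0.61. Ddit4, known as REDD1, which belongs to this list, the ATF4 list and the p53 list, was at 88.8, 94.9, 38.3, 66.1 and 39.4 CPM in 9mTSCmKO and 13.3, 9.56, 11.5, 10.5 and 18.1 CPM in 9mTSCmKO+RM. Vehicle libraries spread widely but lay above all treated libraries (log2 fold change -2.38, SE 0.53, adjusted p = 0.000777). Arrdc2 (-2.02, adjusted p = 0.00245), Tsc22d3, known as GILZ (-1.04, adjusted p = 0.000212), Glul (-0.94, adjusted p = 0.000315), Klf15 (-0.59, adjusted p = 0.00712) and Sgk1 (-0.70, adjusted p = 0.0133) fell. In 9mCON 3 members rose and 2 fell (1 to 3 rose and 0 to 2 fell over the fits without 1 library), and in 3mTSCmKO 12 fell, with a median of -0.90 that ran from -1.09 to -0.40 over such fits. Of 27 p53 targets 10 fell and 2 rose (1 rose without 9mTSCmKO+RM replicate 2 or 3), and Gadd45g (-1.96, adjusted p = 0.000781), Perp (-1.48, adjusted p = 0.000276) and Cdkn1a, known as p21 (-0.95, adjusted p = 0.00222), were among those that fell.

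Denervation and neuromuscular junction genes moved in either direction, with 13 of 35 lower (8 without 9mTSCmKO+RM replicate 2) and 7 higher. Chrng, the fetal subunit of the acetylcholine receptor, was at 4.73, 1.53, 6.97, 1.61 and 1.75 CPM in 9mTSCmKO and 0.235, 0.288, 0.217, 0.482 and 0.487 CPM in 9mTSCmKO+RM, without overlap (log2 fold change -3.26, SE 0.478, adjusted p = 1.65e-06). Colq, which anchors acetylcholinesterase at the synapse, was at 12.2, 18, 22.4, 15.5 and 11.3 CPM in 9mTSCmKO and 5.39, 5.93, 6.14, 3.86 and 5.6 CPM in 9mTSCmKO+RM, without overlap (log2 fold change -1.55, SE 0.192, adjusted p = 7.77e-08), whereas Ache, the esterase itself, rose (0.97, adjusted p = 0.00011). Runx1 (-0.67, adjusted p = 0.0168) and Ncam1 (-0.63, adjusted p = 0.00556) fell, the Runx1 call being lost without replicate 1 of 9mTSCmKO (adjusted p = 0.056) or of 9mTSCmKO+RM (adjusted p = 0.0627). Myog, a myogenic factor that rises in denervation, rose from a range of 1.7 to 5.52 CPM to a range of 4.53 to 13.9 CPM with overlap (adjusted p = 0.00488, log2 fold change 1.30), together with Cdh15 (1.30, adjusted p = 8.91e-08) and the adult sodium channel Scn4a (0.62, adjusted p = 0.00764). The effect on Colq differed from that in 9mCON by -1.80 (adjusted p = 0.000138), and for Chrng a difference of -2.45 (adjusted p = 0.258) did not pass.

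Of 78 mitochondrial ribosomal proteins 25 fell and 5 rose, with a median of -0.27 (18 falls and a median of -0.17 without 9mTSCmKO replicate 3). Mrpl46 fell from a range of 26.8 to 43.4 CPM to a range of 14.3 to 26.5 CPM (adjusted p = 3.13e-05, log2 fold change -0.89), and Mrpl28 (-0.74, adjusted p = 7.81e-05) and Mrps22 (-0.76, adjusted p = 2.81e-05) fell, while Mrps30 (0.69, adjusted p = 4.73e-05) and Mrpl9 (0.64, adjusted p = 9.74e-05) rose. Of 36 subunits of respiratory complex I, 9 fell, and of 43 subunits of complexes II to V, 9 fell and 2 rose. These counts rest on few libraries. Complex I had 2 falls without 9mTSCmKO replicate 3, 16 without 9mTSCmKO replicate 2, 20 without 9mTSCmKO+RM replicate 1, 5 without 9mTSCmKO+RM replicate 2 and 4 without replicate 3 or 4 of that group. It had 5 without the filter on low counts, 3 in a fit of only these 10 libraries and 15 by limma on TPM.

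Complexes II to V had 2 falls without 9mTSCmKO replicate 3, 21 without 9mTSCmKO+RM replicate 1, and 4, 3 and 5 without replicates 2, 3 and 4 of that group. Their 2 rises became 0 or 1 in every fit without 1 library. Ndufb2 of complex I was at 173, 122, 162, 149 and 124 CPM in 9mTSCmKO and 87.2, 96.3, 76.1, 101 and 106 CPM in 9mTSCmKO+RM, without overlap (log2 fold change -0.65, SE 0.156, adjusted p = 0.0014). Cycs, cytochrome c, was at 2204, 828, 2011, 909.9 and 1081 CPM in 9mTSCmKO and 1249, 716, 541, 707 and 813 CPM in 9mTSCmKO+RM, with overlapping groups (log2 fold change -0.81, SE 0.248, adjusted p = 0.0114), and its call was lost without 9mTSCmKO replicate 1 (-0.59, adjusted p = 0.0688) or replicate 3 (-0.64, adjusted p = 0.0504), and in a fit of only these 10 libraries (adjusted p = 0.0624). In the citric acid cycle and branched-chain catabolism 8 of 37 genes fell and 3 rose (1 rose without 9mTSCmKO replicate 1 or 9mTSCmKO+RM replicate 1). Got1, cytosolic aspartate aminotransferase (-1.21, adjusted p = 8.49e-09), Mdh1 (-0.98, adjusted p = 7.11e-06), Pdp1, the phosphatase that activates pyruvate dehydrogenase (-1.17, adjusted p = 2.07e-06), and Bcat2 (-0.99, adjusted p = 1.45e-05) fell.

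Of 24 genes of sterol synthesis and uptake 8 fell and 2 rose. Insig1, which retains the sterol factor SREBP in the endoplasmic reticulum, was at 32.5, 23.2, 29, 26.3 and 36.7 CPM in 9mTSCmKO and 8.83, 15.6, 9.56, 16.3 and 17.2 CPM in 9mTSCmKO+RM, without overlap (log2 fold change -1.13, SE 0.175, adjusted p = 3.95e-06), and Sqle (-1.21, adjusted p = 0.0037), Mvd (-0.78, adjusted p = 0.0057) and Nsdhl (-0.60, adjusted p = 0.00176) fell, while Dhcr7 (0.80, adjusted p = 0.00508) and Cyp51 (0.37, adjusted p = 0.0269) rose. The Cyp51 call was lost without 9mTSCmKO replicate 3, 4 or 5 or 9mTSCmKO+RM replicate 2, 3 or 4 (adjusted p of up to 0.120), which leaves 1 rise. The sterol element TCACNCCAC stood in the window of 1 of 17 members, Hmgcs1, which fell (-0.32, adjusted p = 0.0267), a call lost in 4 of 10 fits without 1 library (adjusted p of up to 0.068). Of 22 genes of fatty acid synthesis 5 fell (3 without 9mTSCmKO replicate 1) and 2 rose, with Thrsp lower (-1.09, adjusted p = 0.000386) and Gpam (1.06, adjusted p = 0.0083) higher. Elovl6 fell (-1.15, adjusted p = 0.00945), but vehicle replicate 1 held 101 CPM where the other 4 held at most 27.8 CPM, and without it the change was -0.40 (adjusted p = 0.265). Of 41 genes of fatty acid uptake and oxidation 5 rose and 5 fell (3 fell without 9mTSCmKO replicate 3 or 9mTSCmKO+RM replicate 2 or 4). These counts lay below the shares over all genes of 15.8% and 16.8%. Lpl (0.82, adjusted p = 0.00155) and Cpt2 (0.69, adjusted p = 0.00298) rose, and Fabp3 (-1.27, adjusted p = 0.0026) and Plin2 (-0.59, adjusted p = 0.000614) fell. Angptl4, which blocks Lpl, fell as well (-1.68, adjusted p = 0.0213), a call lost without 9mTSCmKO replicate 1 (adjusted p = 0.0536) or 3 (adjusted p = 0.151).

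Of 32 interferon-stimulated genes 13 fell, with a median of -0.31. Ifit1 was at 44, 25.4, 25.8, 11.4 and 16.4 CPM in 9mTSCmKO and 8.21, 4.89, 6.19, 10.1 and 8.41 CPM in 9mTSCmKO+RM, with the nearest values just apart (log2 fold change -1.70, SE 0.344, adjusted p = 0.000217). Isg15 (-1.79, adjusted p = 0.000816), Mx1 (-1.98, adjusted p = 0.000238), Usp18 (-1.29, adjusted p = 0.0002595) and the regulator Irf7 (-1.26, adjusted p = 0.000573) fell. In 9mCON the list's median was -0.51, with 8 members lower (5 to 12 over the fits without 1 library), and 0 of the 32 genotype differences passed by edgeR (5 at an unadjusted p below 0.05, 1 by DESeq2 and 0 by limma on TPM). Of the 19 macrophage markers 18 had log2 fold changes below 0 in 9mTSCmKO, with a median of -0.59. In 9mCON 16 of the 19 fell, with a median of -1.59 and sums of 145 to 356 CPM with vehicle and 69.2 to 154 CPM with rapamycin. The part of macrophages in either group was not tested.

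Of 21 cell cycle genes, 9 fell and 4 rose (2 without 9mTSCmKO replicate 2 or 5). Tpx2, a spindle protein, was at 27, 11.4, 15, 16.2 and 31.4 CPM in 9mTSCmKO and 6.8, 2.59, 2.93, 5.03 and 3.11 CPM in 9mTSCmKO+RM, without overlap (log2 fold change -2.33, SE 0.292, adjusted p = 1.2e-07), and Kif20a (-1.76, adjusted p = 0.000425) and Prc1 (-1.47, adjusted p = 0.000863) fell. Ccne2, a cyclin of DNA replication, rose from 6.07 ± 0.862 CPM with vehicle to 13.2 ± 1.31 CPM with rapamycin (SD, n = 5; log2 fold change 1.13, SE 0.129, adjusted p = 1.87e-08), with Mcm2 (0.66, adjusted p = 0.00337), while Mcm3 (-0.74, adjusted p = 0.00699) and Mcm6 (-0.74, adjusted p = 0.0138) fell. The Mcm6 call was lost without 9mTSCmKO replicate 3 (-0.60, adjusted p = 0.0564), without 9mTSCmKO+RM replicate 1 (-0.58, adjusted p = 0.051) and in the fit of only these 10 libraries (adjusted p = 0.0524), which also lost that of Mcm3 (adjusted p = 0.0816).

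Of 45 collagens and fibrillar matrix genes 5 fell and 1 rose, with a median of -0.39. The 5 falls became 3 without 9mTSCmKO replicate 1 or 9mTSCmKO+RM replicate 2, and 10 without 9mTSCmKO replicate 4. The median was -0.16 without 9mTSCmKO replicate 1 and -0.255 by limma on TPM, and the rise was lost in 6 of 10 fits without 1 library. Lox, which crosslinks collagen, was at 33.8, 59, 36.9, 36.6 and 65.1 CPM in 9mTSCmKO and 16.3, 13.5, 16, 18.6 and 12.1 CPM in 9mTSCmKO+RM, without overlap (log2 fold change -1.60, SE 0.296, adjusted p = 7.08e-05), and Timp1 fell (-1.87, adjusted p = 0.0024). In 9mCON 32 of the 45 fell, with a median of -1.26. The 10 tenocyte markers summed to 33.4 to 75.8 CPM in 9mCON+RM against 94.2 to 544 CPM in 9mCON, and 8 of them fell (4 to 8 over the fits without 1 library). In the same group 10 of 11 fibroblast markers fell, with a median of -1.18 and sums of 1165 to 2067 CPM with vehicle and 253 to 940 CPM with rapamycin, beside the fall of macrophage markers given above. The part of these cells in the 9mCON values was not tested. In TSCmKO the tenocyte markers summed to 61.8 to 140 CPM with vehicle and 35.7 to 86.8 CPM with rapamycin. There the log2 fold changes of 9 of the 10 tenocyte markers were below 0, with a median of -0.81, and 1 passed the test. The part of tenocytes was not tested here either. In the same libraries 0 of 11 fibroblast markers passed by edgeR (1 at an unadjusted p below 0.05, 1 by DESeq2 and 0 by limma on TPM).

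**Figure D5:**
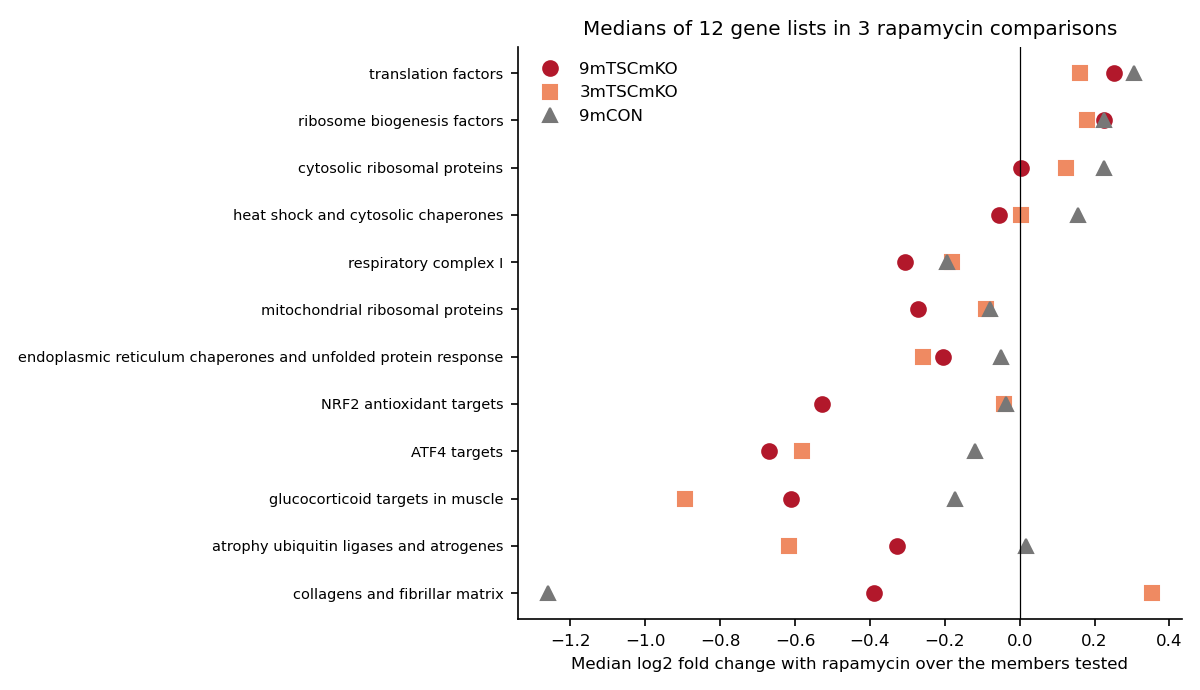
Median log2 fold change with rapamycin over the tested members of 12 lists, in 9mTSCmKO (red circles), 3mTSCmKO (orange squares) and 9mCON (grey triangles). Translation and ribosome biogenesis factors have medians above 0 in all 3 comparisons, and the NRF2 median is -0.53 in 9mTSCmKO against -0.04 in each of the others.

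The 10 largest falls among genes at 5 CPM or more and without overlap were those of Adh7, Gsta1, Krt8, Gdf15, Prr32, Ptgs2, Map7d2, Nmrk2, Spp1 and Uchl1, with log2 fold changes of -5.41 for Adh7 to -3.16 for Uchl1. Vehicle replicate 3 held the highest value of its group for 10 of these 10, and for 26.4% of all genes tested. Without it they ranged from -4.86 for Adh7 to -2.72 for Uchl1, and all 10 still passed. Nmrk2, a nicotinamide riboside kinase induced in energy stress, was at 348, 321, 706, 375 and 204 CPM in 9mTSCmKO and 26.1, 42.9, 33.7, 45.2 and 35.8 CPM in 9mTSCmKO+RM, and its treated level lay below the 9mCON mean of 235 ± 117 CPM (log2 fold change -3.41, SE 0.417, adjusted p = 1.2e-07). Krt8, an epithelial keratin also made by damaged muscle, was at 12.1, 13.5, 35, 10.4 and 13.1 CPM in 9mTSCmKO and 0.156, 0.864, 1.03, 2.13 and 0.548 CPM in 9mTSCmKO+RM (log2 fold change -4.13, SE 0.384, adjusted p = 6.13e-10), against 0.0227 ± 0.0311 CPM in 9mCON. Uchl1, a ubiquitin hydrolase of neurons, fell from 135 ± 83.6 CPM with vehicle to 15.1 ± 8.3 CPM with rapamycin (SD, n = 5; log2 fold change -3.16, SE 0.321, adjusted p = 2.8e-09), with 2.5 ± 0.788 CPM in 9mCON.

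Map7d2, a microtubule-binding protein, fell from 37.5 ± 11.8 CPM with vehicle to 3.23 ± 1.82 CPM with rapamycin (SD, n = 5; log2 fold change -3.55, SE 0.297, adjusted p = 2.27e-11). Ptgs2, the inducible cyclooxygenase (-3.81, adjusted p = 6.7e-06), Spp1, osteopontin (-3.34, adjusted p = 2.47e-05), Prr32 (-3.89, adjusted p = 2.24e-09) and Gsta1 (-4.67, adjusted p = 7.68e-10) complete the list, but 92.9% of the 31-mers of Gsta1 stand in other genes, so that its identity is uncertain. The genotype difference passed for Adh7, for Map7d2 at -3.44 (adjusted p = 0.000152) and for Uchl1 at -2.99 (adjusted p = 0.00049). In 3mTSCmKO, Nmrk2 changed by -2.48 (adjusted p = 1.5e-05), Map7d2 by -0.78 (adjusted p = 0.198) and Uchl1 by -0.43 (adjusted p = 0.416).

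Among the 10 largest rises, 4 are noncoding transcripts: 2310020H05Rik (3.24, adjusted p = 3.53e-08), Gm38560 (2.44, adjusted p = 1.07e-07), Gm16576 (2.38, adjusted p = 9.14e-11) and Epb41l4aos (2.05, adjusted p = 4.94e-06). 2310020H05Rik, a long intergenic RNA on chromosome 13, was at 0.052, 0.764, 1.12, 0.807 and 0.918 CPM in 9mTSCmKO and 8.75, 5.58, 3.8, 6.68 and 10.1 CPM in 9mTSCmKO+RM. All treated libraries were at least 3-fold above all vehicle libraries (log2 fold change 3.24, SE 0.384, adjusted p = 3.53e-08). The study text limits the transcript set to protein-coding genes, so that the values of these 4 are uncertain.

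The coding genes were Mybph, Cntfr, Arvcf, Adamts20, Dkk3 and Wnk2. Arvcf, a catenin of cell junctions, was at 11.8, 18.1, 14.8, 16.9 and 17.3 CPM in 9mTSCmKO and 46.7, 61.8, 72.8, 55.9 and 57.3 CPM in 9mTSCmKO+RM, with a wide gap between groups (log2 fold change 1.901, adjusted p = 2.19e-12), and at 16.2 ± 3.41 CPM in 9mCON. Cntfr, the receptor of ciliary neurotrophic factor, was at 8.05, 4.47, 3.07, 2.25 and 2.32 CPM in 9mTSCmKO and 18.9, 16.3, 15.2, 13.2 and 17.7 CPM in 9mTSCmKO+RM. All treated libraries were above all vehicle libraries (log2 fold change 2.01, SE 0.358, adjusted p = 4.46e-05), yet far below the 9mCON level of 55.7 ± 9.33 CPM. Dkk3, a secreted modulator of Wnt signalling, was at 3.74, 3.7, 5.13, 3.06 and 4.94 CPM in 9mTSCmKO and 19.4, 21.2, 13, 7.85 and 9.38 CPM in 9mTSCmKO+RM (log2 fold change 1.78, SE 0.294, adjusted p = 1.44e-05), and at 365 ± 28.4 CPM in 9mCON. The treated level was lower than in 9mCON (log2 fold change -4.69, adjusted p = 4.96e-14). Adamts20, a metalloprotease (1.82, adjusted p = 7.55e-08), and Wnk2, a kinase that acts on ion carriers (1.75, adjusted p = 2.36e-08), rose without overlap.

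Markers of other cells were set beside these results. Of 10 satellite cell markers 4 rose, among them Pax7 (0.84, adjusted p = 0.0116), and 1 fell. Their log2 fold changes were above 0 for 4 and below 0 for 6, with a median of -0.06. Their sum, in which high members weigh most, was 187 to 236 CPM with vehicle and 259 to 306 CPM with rapamycin. Of 11 smooth muscle and pericyte markers 5 rose (3 to 5 over the fits without 1 library), with sums of 5139 to 6336 CPM and 7856 to 9777 CPM, to which Des, also a gene of muscle fibers, gave most. Of 13 endothelial markers Tek rose (0.38, adjusted p = 0.0231) and Kdr fell (-0.52, adjusted p = 0.0168), calls lost in 4 and 3 of 10 fits without 1 library (adjusted p of up to 0.144 and 0.0661). Of 10 Schwann cell markers 1 rose and 2 fell (0 to 1 and 1 to 3 over such fits), and 0 of 8 adipocyte and 0 of 8 erythroid markers passed by edgeR, at an unadjusted p below 0.05, by DESeq2 or by limma on TPM. Adipocyte marker sums were 1252 to 3936 CPM with vehicle and 1726 to 2476 CPM with rapamycin, and erythroid sums 279 to 1200 CPM and 355 to 755 CPM. Whether the makeup of the muscle had a part in the gene lists above was not tested.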

How the data were processed

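Polyadenylated RNA of whole EDL muscle was sequenced in 40 libraries of 8 groups. The authors trimmed reads with cutadapt 1.9.1, quantified transcripts with kallisto 0.43.1 on GRCm38, sharing reads that hit several transcripts, and deposited estimated counts per gene. They also deposited TPM per gene. Estimated counts were rounded to whole numbers, and of 22844 genes the 13543 at 1 CPM or more in at least 5 libraries were tested. edgeR 4.0.16 (R 4.3.3; TMM scaling, robust quasi-likelihood test, Benjamini-Hochberg adjustment at 0.05) was fitted to all 40 libraries with a mean per group. Contrasts and the genotype difference came from that fit, and SE is the log2 fold change over the root of F. Alternatives included DESeq2 1.42.0 and limma 3.58.1 on log2(TPM + 1). Steps were tested on simulated counts with 50 genes changed at each size in 9mTSCmKO+RM. The test called 34% of 1.5-fold and 88% of 2-fold changes, with 7 false calls. Changes of 1.5-fold or less were thus often missed. Named are Tsc1, the 10 largest rises and falls without overlap at a mean of 5 CPM or more in the higher group, the 3 largest changes per list at that level, and further members where the account of a list needed their role, leaving out some whose call was lost in several fits without 1 library. The members and lists were chosen with earlier results of these data known. Shared sequence was measured as 31-mers found in other genes. Coordinates of genes are of GENCODE on GRCm38. Some genes counted in the lists are not reported here by name.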

Additional observations from a re-analysis of the deposited data

Results flagged for a closer look

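In 15 of 220 sets of 5 values of the 110 genes named by the rule on size of change, 1 library stood far from the other 4, with a gap of more than 0.71 of the whole range. Chance gives about 1 in 20, or 11 here. In 9mTSCmKO replicate 3 was the library apart for Adh7 (0.775), Krt8 (0.874), Prr32 (0.765), Gadd45a (0.771), Hmox1 (0.876), Sqstm1 (0.92) and Mybph (0.912), where the number is the gap as a share of the range. Replicate 5 was apart for Amd1 (0.725) and replicate 1 for Elovl6 (0.901). In 9mTSCmKO+RM replicate 1 was apart for Arrdc2 (0.768), Gadd45g (0.829), Bcat2 (0.829) and Sesn2 (0.814), replicate 4 for Uchl1 (0.715) and replicate 3 for Tsc1 (0.763).

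For 37 of those 110 genes the rapamycin effect in 9mTSCmKO differed from that in 9mCON by the edgeR test of the difference, with adjusted p below 0.05. Over all genes tested it was 660 (4.87%), but the 110 were chosen by their change in 9mTSCmKO, which is part of this difference, so that the shares cannot be compared. The difference of log2 fold changes (9mTSCmKO minus 9mCON) was below 0 for 23 of the 37, Adh7 (-5.06), Map7d2 (-3.44), Uchl1 (-2.99), Colq (-1.8), Gadd45a (-1.71), Fbxl22 (-1.69), Asns (-1.68), Tpx2 (-1.61), Txn1 (-1.38), Hmox1 (-1.21), Hk1 (-1.2), Pdp1 (-1.16), Pgd (-1.12), Sqstm1 (-1.11), Ctsl (-1.1), Slc2a1 (-1.02), Acvr1b (-1.02), Hspa2 (-0.99), Got1 (-0.96), Sesn2 (-0.95), Hspa5 (-0.88), Rpl36al (-0.65) and Psmb5 (-0.62). It was above 0 for 14, Mybph (3.14), 2310020H05Rik (2.85), Fst (2.08), Gm16576 (1.85), Dkk3 (1.68), Gm38560 (1.61), Arvcf (1.41), Trib1 (1.14), Hlf (1.13), Per3 (1.0), Wnk2 (0.92), Aimp2 (0.91), Mybpc2 (0.84) and Dars (0.49). Among genes outside that rule, Trib3 (-2.20), Mthfd2 (-1.29) and Nqo1 (-1.01) passed as well. In 9mCON, where rapamycin lowered 8 of 10 tenocyte markers (4 to 8 over the fits without 1 library), the tenocyte sum was 94.2 to 544 CPM with vehicle and 33.4 to 75.8 CPM with rapamycin, and 10 of 11 fibroblast and 16 of 19 macrophage markers fell too. The part of these cells in the differences was not tested.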

How the results depend on the processing

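The count of 4410 genes changed by rapamycin in 9mTSCmKO was 4399 with RLE scaling, 4438 with upper-quartile scaling, 4247 without a filter, 4109 with insert size as a term (which drops 9mTSCmKO+RM replicate 5, without a labelled size), 4609 by DESeq2, 3943 by limma on TPM, and 3734 to 4515 without 1 library. A fit of only the groups compared called 2544 genes in 9mTSCmKO, 554 in 9mCON and 209 for the genotype difference, which was 435 without the filter and 467 to 845 without 1 library. Upper-quartile scaling moved the share of higher calls in the genotype difference from 52.6% to 61.7% and in 3mTSCmKO from 44.9% to 55.7% (55.3% by limma), and limma moved it in 9mCON from 42.5% to 31.2%. Of 498 called genes that are named or on the lists, 155 lost their call in at least 1 of the 10 fits without 1 library, 154 in the fit of only the groups compared, 69 by limma and 57 without the filter, and 0 changed sign. The causes were not tested. Depth was 13981064 to 20867776 counts per library, which limits the precision of genes near 1 CPM.

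List counts in 9mTSCmKO moved by over 1.5 times in the fit of only these 10 libraries, beside those given above. Rises went from 8 to 4 for the proteasome, 7 to 3 for glucose and glycogen, 5 to 3 for mitochondrial ribosomal proteins, 4 to 2 for the cell cycle and for myostatin signalling, 3 to 1 for the citric acid cycle, 2 to 1 for sterol, polyamine, endoplasmic reticulum and p53 genes, 2 to 0 for complexes II to V and 1 to 0 for collagens. Falls went from 25 to 16 for mitochondrial ribosomal proteins, 13 to 8 for denervation, 11 to 7 for the endoplasmic reticulum, 9 to 4 for the cell cycle, 9 to 2 for complexes II to V, 8 to 5 for sterol genes and for the proteasome, 5 to 3 for fatty acid synthesis, 5 to 2 for fatty acid oxidation, 4 to 2 for tRNA synthetases, 4 to 1 for myostatin signalling, 2 to 0 for cytosolic ribosomal proteins and from 0 to 2 for the clock. By limma, falls were 4 for translation factors, 3 for fatty acid synthesis, 2 for fatty acid oxidation and for tRNA synthetases, and 1 for myostatin signalling, and rises were 6 for the citric acid cycle and 2 for myostatin signalling. Without the filter, falls were 3 for fatty acid oxidation and for collagens, 2 for translation factors and for myostatin signalling, and 1 for cytosolic ribosomal proteins. With insert size as a term they were 3 for fatty acid oxidation and 1 for cytosolic ribosomal proteins. The rises of complexes II to V were 0 or 1, that of collagens was lost and those of the endoplasmic reticulum fell to 1 in several of these settings.

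The replicate numbers did not pair the libraries: deviations of same-numbered 9mTSCmKO and 9mTSCmKO+RM libraries correlated at -0.271 to 0.150, and 0 of 5 matched their own number best. With the replicate number as a block 4315 genes were called, 4225 of them among the 4410.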
